A study of Mus musculus with 8 samples.

Results

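The Ssty and Spindlin genes form a small family of chromatin readers, and 5 of its members were followed in RNA sequencing of adult mouse testis: Ssty1 and Ssty2 on the Y chromosome, Spin2c and Spin4 on the X and Spin1 on chromosome 13. They are the rows of the deposited count table whose Ensembl identifiers map to these symbols, 5 of 56748 genes. The 4 knockout libraries came from testis of genotype Ssty2-/-, and the 4 wild-type libraries from testis labelled WT. The labels give neither a strain nor an exact age, nor how the allele was made, nor whether the 4 libraries of a group came from separate animals. The p-values below therefore set the difference between the groups against the scatter of these libraries only, and that scatter may be technical.

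Spindlins are built from repeated Tudor-like folds, which bind the tail of histone H3 when lysine 4 carries 3 methyl groups, the mark H3K4me3 of active promoters, and they also contact methylated residues nearby on the same tail or on histone H4. SPIN1, first described as an abundant protein of the mouse egg and of the meiotic spindle, is the best studied of them and is found in many tissues. The Ssty genes (spermiogenesis-specific transcript on the Y) are Y-linked relatives that were amplified on the long arm of the mouse Y and are transcribed in spermatids, the haploid germ cells after meiosis. SSTY proteins bind SLY, a product of another amplified gene of the Y long arm, and its X-linked relatives SLX and SLXL1, which act against SLY in controlling the sex chromosomes of spermatids.

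The members differ widely in sequence, which bears on how well their reads can be told apart. Translated coding sequences were 227 residues long for Ssty2, 232 for Ssty1, 262 for Spin1, 257 for Spin2c and 249 for Spin4. Ssty2 and Ssty1 shared 75% of the residues of the longer protein. Ssty2 shared 48.1% with Spin1, 52.9% with Spin2c and 48.6% with Spin4. The 3 genes off the Y were closer to each other, at 69.8% for Spin1 and Spin2c, 68.7% for Spin1 and Spin4 and 61.1% for Spin2c and Spin4. At the level of nucleotides Ssty2 and Ssty1 had 11 words of 31 bases in common, and every other pair of members had 0.

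The 60 coding bases below are the stretch in which the 5 members were most alike, shown because it lets the reader see the distance between the Y-linked copies and the spindlins on other chromosomes. All sequences are from the GENCODE vM21 annotation of GRCm38, run 5′ to 3′ along the coding strand, and have in capitals each base that differs from the first sequence of the set. The stretch covers coding bases 61 to 120 of Ssty2 (minus strand) and of Ssty1 (plus strand), 142 to 201 of Spin2c (plus strand), 160 to 219 of Spin1 (plus strand) and 121 to 180 of Spin4 (minus strand).
Ssty2: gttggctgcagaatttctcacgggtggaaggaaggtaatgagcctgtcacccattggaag
Ssty1: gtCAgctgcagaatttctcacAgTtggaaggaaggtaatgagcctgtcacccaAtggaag
Spin2c: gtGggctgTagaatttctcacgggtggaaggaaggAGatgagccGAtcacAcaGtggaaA
Spin1: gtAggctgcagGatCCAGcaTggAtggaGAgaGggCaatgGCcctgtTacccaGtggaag
Spin4: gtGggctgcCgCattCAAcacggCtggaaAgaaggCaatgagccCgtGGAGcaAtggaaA
Over this stretch Ssty1 differed from Ssty2 at 5 bases, Spin2c at 9, and Spin1 and Spin4 at 16 each. Over the whole aligned coding sequence, identity to Ssty2 was 86.8% for Ssty1, 69.0% for Spin2c, 63.4% for Spin1 and 61.3% for Spin4.

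The libraries held between 18036708 and 22639737 counts in knockout and between 18763650 and 24415587 in wild type. Levels are given as CPM, counts scaled to 1000000 per library with TMM factors (trimmed mean of M-values), as mean ± SD with n = 4 per group, and changes as log2 of knockout over wild type with the SE of edgeR's quasi-likelihood fit. A gene was called when its Benjamini-Hochberg p-value, adjusted over the 21952 genes tested, was under 0.05. The comparison was a broad one. Of all tested genes 26.2% were called higher in knockout and 27.4% lower, together 53.5%, and the groups did not overlap in 46.7%. With library totals in place of TMM the split moved to 3848 higher and 8255 lower, against 5744 and 6008, and the median log2 change to -0.15. Pairs of libraries correlated at 0.985 to 0.992 within a group and at 0.959 to 0.967 across groups.

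Of the 5 members, 4 passed the filter on low counts. Ssty2 and Spin1 were called lower, Spin2c and Spin4 were not called, and Ssty1 had no count anywhere. The groups did not overlap for Ssty2 and Spin1 and overlapped for Spin2c and Spin4. Ssty2 passed the filter through wild type alone, so it had to differ, and 2 calls among 4 tested genes is close to the share over all genes.

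Ssty2 (ENSMUSG00000095302), the gene named in the knockout, had 0 counts in each of the 4 knockout libraries, against 56, 78, 83 and 45 counts in wild-type replicates 1 to 4. The wild-type levels were 2.88, 3.41, 3.23 and 2.16 CPM, on average 2.92 ± 0.552 CPM. Every library was on the side its label gives, and the groups were far apart. Set against the limit of 3 counts over the knockout group, which is 0.0383 CPM, Ssty2 was at least 77.0-fold lower in knockout. In bulk RNA, fewer cells of a type and less RNA per cell cannot be told apart.

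Ssty1 (ENSMUSG00000095267) had 0 counts in all 8 libraries. A count of 0 allows up to 0.0383 CPM over the knockout group and between 0.123 and 0.160 CPM in a single wild-type library. All of its 31-base words occurred in other genes too, and the coding sequence of Gm21454, another Y-linked copy, translated to a protein 100% identical to it. How the counting treated reads that map to several places is not given in the sources used here, so the level of Ssty1 could not be read from its own row.

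Spin1 (ENSMUSG00000021395) was lower in each of the 4 knockout libraries than in all of wild type. It had 517, 619, 581 and 493 counts in knockout replicates 1 to 4, against 800, 1065, 1128 and 891 in wild type. The levels were 27.8, 29.1, 27.5 and 28.7 CPM in knockout, against 41.2, 46.6, 43.9 and 42.8 CPM in wild type, with means of 28.3 ± 0.747 CPM in knockout and 43.6 ± 2.27 CPM in wild type. The spread within each group was small beside the gap between them. The log2 change of Spin1 was -0.63 (SE 0.0662, adjusted p = 1.25e-06), and in 14 alternative settings it lay between -0.77 and -0.60 and was called in each.

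Among all tested genes 12.2% had a log2 change as low as that of Spin1 or lower, and 803 had a p-value as small or smaller. The middle 50% of all log2 changes lay between -0.37 and 0.33. The Spin1 change thus lay outside the central range of a table in which 53.5% of genes were called, but not at its edge.

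Spin2c (ENSMUSG00000046550), one of several X-linked Spin2 copies, had few counts. It had 13, 14, 6 and 7 in knockout, against 21, 18, 17 and 14 in wild type, or 0.512 ± 0.199 CPM in knockout and 0.801 ± 0.195 CPM in wild type. Knockout replicates 1 and 2, at 0.698 and 0.657 CPM, lay within or close to the wild-type range of 0.662 to 1.08 CPM, and the groups overlapped. The log2 change was -0.63 (SE 0.338, adjusted p = 0.128). The size was that of Spin1, with a wider SE, and counting error alone put the knockout level between 42.8% and 97.0% of wild type.

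Spin4 (ENSMUSG00000071722), an X-linked gene with none of its 31-base words in any other gene, was not called either. It had 5, 11, 15 and 11 counts in knockout, against 9, 31, 16 and 13 in wild type, or 0.534 ± 0.194 CPM in knockout and 0.767 ± 0.400 CPM in wild type. Wild-type replicate 2, at 1.36 CPM, stood above the other 7 libraries, which ran from 0.268 to 0.710 CPM. The log2 change was -0.52 (SE 0.387, adjusted p = 0.267), with a counting interval from 45.9% to 103% of wild type, and without wild-type replicate 2 it was -0.11 (adjusted p = 0.837).

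**Figure D1:**
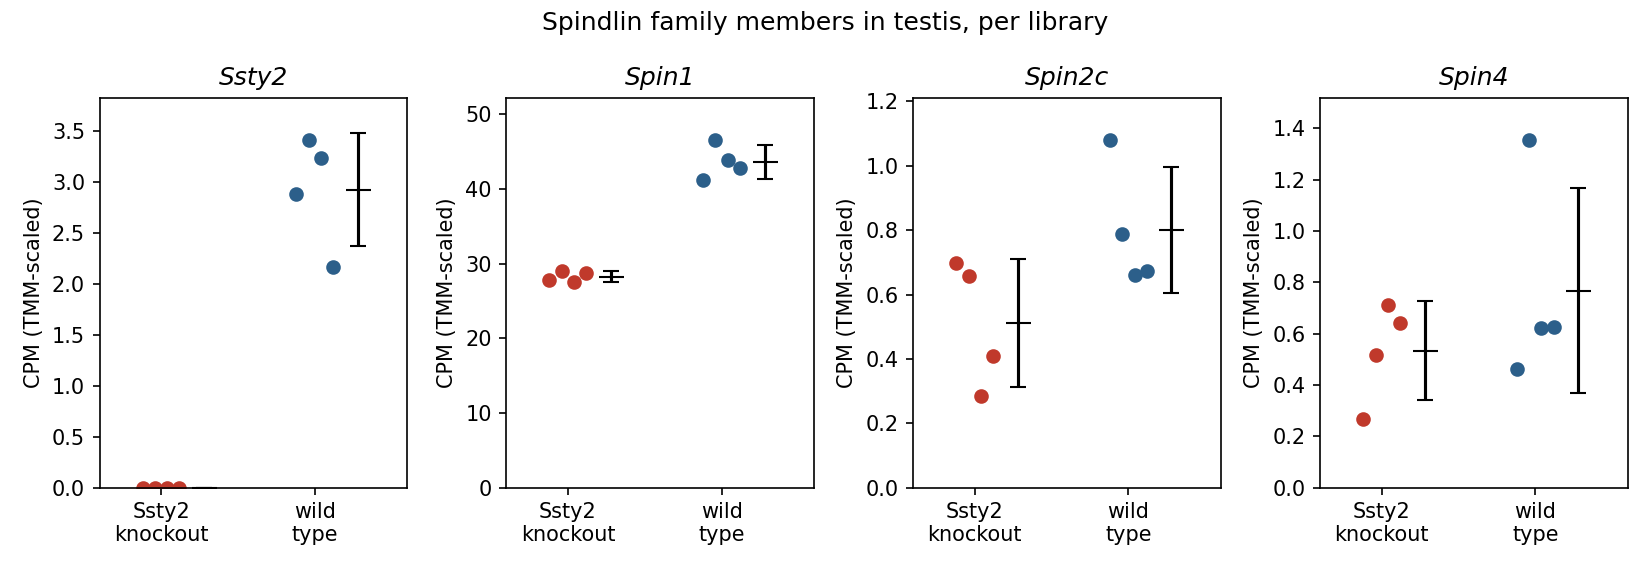
Level of the 4 members with counts, in TMM-scaled CPM (each panel has its own axis from 0), for Ssty2 knockout and wild-type testis. Points are single libraries, and bars are mean ± SD (n = 4 per group). The knockout libraries are at 0 for Ssty2 and at 27.5 to 29.1 CPM for Spin1, below all wild-type libraries, while the groups overlap for Spin2c and Spin4.

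Whether the change differed between members was asked within each library, from the log2 ratio of counts with 0.5 added, which does not depend on the scaling. The ratio of Spin1 to Spin4 averaged 5.74 ± 0.585 in knockout and 5.90 ± 0.571 in wild type, a difference of -0.16 (two-sided exact permutation test, p = 0.686, adjusted p = 0.857 over 2 ratios). The ratio of Spin1 to Spin2c averaged 5.80 ± 0.566 in knockout and 5.75 ± 0.364 in wild type, a difference of 0.05 (exact permutation p = 0.857, adjusted p = 0.857). The groups overlapped in both ratios, with SDs between libraries larger than the differences. A p-value of this kind does not show that the members moved alike, and 4 against 4 libraries cannot give one under 0.0286.

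Levels of different genes were compared per kilobase of exon. In knockout Spin1 was the highest member at 6.28 ± 0.166 CPM per kb, followed by Spin2c at 0.372 ± 0.144 and Spin4 at 0.128 ± 0.0465, with Ssty2 at 0. In wild type Spin1 was again highest at 9.70 ± 0.505 CPM per kb, followed by Ssty2 at 2.40 ± 0.454, Spin2c at 0.582 ± 0.142 and Spin4 at 0.184 ± 0.0959. The ranges of neighbours in these orders did not overlap. The lowest Spin2c library and the highest Spin4 library were at 0.206 and 0.170 CPM per kb in knockout, against 0.481 and 0.325 CPM per kb in wild type.

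The 2 Y-linked members stand for many annotated copies. A search of all coding models for at least 25% identity to Spin1 returned 66, the 5 members among them, and 54 of the others were on the Y. Each Y-linked model was assigned to Ssty2 or Ssty1 by the higher protein identity, which gave 36 models of the Ssty2 type and 20 of the Ssty1 type, the named genes included. The remaining 7 were X-linked relatives of Spin2c. Because these copies resemble each other closely, the counts of any single copy are uncertain. The sums over a type depend less on how reads were divided among its copies, but may leave out reads that were counted for none.

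The 90 coding bases shown next (positions 214 to 303) are those in which 6 models of the Ssty2 type differed most, chosen so that copies without and with counts in knockout can be set side by side. Ssty2, Gm20806 and Gm20854, all on the minus strand, had no count in knockout, while Gm20914, Gm28171 and Gm20821, on the plus strand, did.
Ssty2: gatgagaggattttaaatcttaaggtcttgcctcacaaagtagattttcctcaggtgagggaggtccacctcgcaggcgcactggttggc
Gm20806: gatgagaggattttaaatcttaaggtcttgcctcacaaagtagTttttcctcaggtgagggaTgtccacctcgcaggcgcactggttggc
Gm20854: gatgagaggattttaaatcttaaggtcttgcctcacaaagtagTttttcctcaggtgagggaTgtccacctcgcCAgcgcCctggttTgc
Gm20914: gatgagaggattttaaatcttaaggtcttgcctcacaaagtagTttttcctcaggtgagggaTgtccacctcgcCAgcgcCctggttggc
Gm28171: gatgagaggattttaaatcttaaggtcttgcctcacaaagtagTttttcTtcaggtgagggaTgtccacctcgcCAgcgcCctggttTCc
Gm20821: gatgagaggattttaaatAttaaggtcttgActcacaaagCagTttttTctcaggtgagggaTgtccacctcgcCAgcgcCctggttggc
Over the whole coding sequence Gm20806 was 99.3% identical to Ssty2, Gm20854 98.7%, Gm20914 97.9%, Gm28171 96.9% and Gm20821 96.8%. In the 90 bases Gm20806 differed from Ssty2 at 2, Gm20854 at 6, Gm20914 at 5, Gm28171 at 8 and Gm20821 at 9. These 6 models were picked for display, and their order of identity does not hold over all copies of the type. By protein identity some copies without a count in knockout, such as Gm20738 and Gm20865, were less like Ssty2 than Gm20914.

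The same was done for the Ssty1 type over coding bases 46 to 135. Gm20873 (plus strand) had 1 count in knockout, and Gm21310 (minus strand), Gm21778 and Gm21854 (both plus strand) were higher in knockout.
Ssty1: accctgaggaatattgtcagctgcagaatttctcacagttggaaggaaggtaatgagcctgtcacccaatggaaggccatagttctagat
Gm20873: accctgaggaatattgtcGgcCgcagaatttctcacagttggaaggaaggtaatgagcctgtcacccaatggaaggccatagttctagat
Gm21310: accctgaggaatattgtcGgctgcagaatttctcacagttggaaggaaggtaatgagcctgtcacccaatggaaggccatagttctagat
Gm21778: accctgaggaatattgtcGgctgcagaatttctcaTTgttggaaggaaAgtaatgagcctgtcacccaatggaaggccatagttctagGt
Gm21854: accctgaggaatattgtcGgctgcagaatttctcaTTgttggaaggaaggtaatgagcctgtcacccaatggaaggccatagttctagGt
Identity to Ssty1 over the whole coding sequence was 98.7% for Gm20873, 99.0% for Gm21310, 97.7% for Gm21778 and 97.6% for Gm21854. Gm21310 differed from Ssty1 at 1 of the 90 bases, fewer than Gm20873 at 2, Gm21854 at 4 and Gm21778 at 5.

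Summed over the 36 models of the Ssty2 type, the level was 9.93, 9.81, 10.2 and 9.90 CPM in knockout, against 22.9, 28.3, 29.8 and 25.2 CPM in wild type. The mean of 9.95 ± 0.156 CPM in knockout was 37.5% of the 26.5 ± 3.12 CPM in wild type. The groups lay far apart, and the knockout libraries close together. Summed over the 20 models of the Ssty1 type, the level was 10.5, 13.0, 12.02 and 13.97 CPM in knockout, against 7.21, 10.2, 10.7 and 9.33 CPM in wild type. The mean of 12.4 ± 1.49 CPM in knockout was 132% of the 9.35 ± 1.53 CPM in wild type, and the lowest knockout library lay just under the highest of wild type. Over all 56 models the knockout level was 62.2% of wild type. These sums cover counted reads only, and 7 models of each type had no count in any library.

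**Figure D2:**
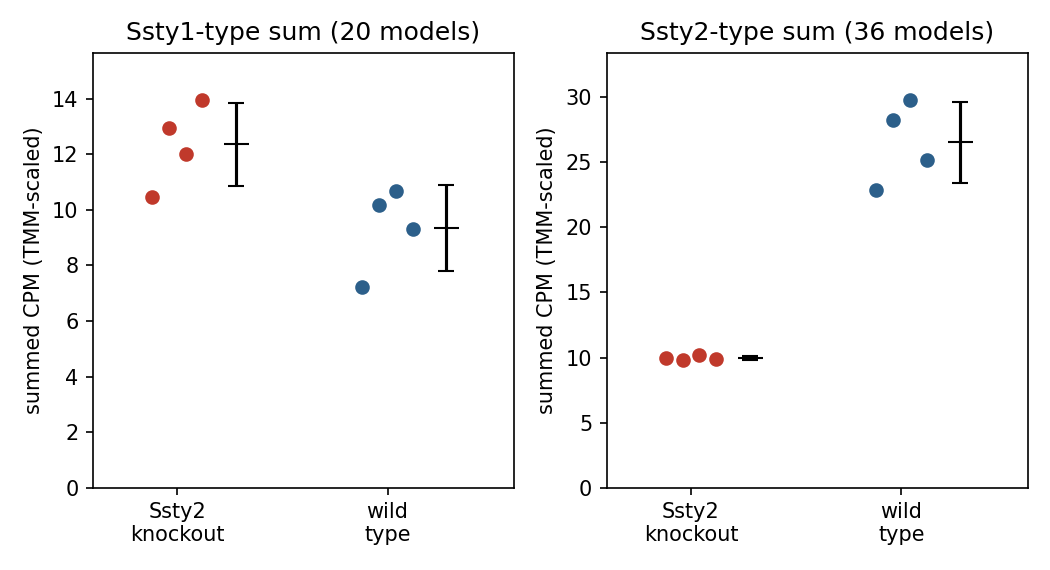
Summed level of the Y-linked models of the Ssty1 type (20 models) and the Ssty2 type (36 models), in TMM-scaled CPM with axes from 0, for Ssty2 knockout and wild-type testis. Points are single libraries, and bars are mean ± SD (n = 4 per group). The Ssty2-type sum is near 10 CPM in all knockout libraries and at 22.9 CPM or more in wild type, while the Ssty1-type sums overlap.

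Per kilobase, the Ssty2-type copies together reached 8.20 ± 0.132 CPM in knockout and 21.7 ± 2.54 CPM in wild type, and the Ssty1-type copies 8.81 ± 1.07 CPM in knockout and 6.65 ± 1.06 CPM in wild type. In knockout the Ssty2-type and Ssty1-type sums overlapped, and both were above Spin1. In wild type the summed Ssty2 type was above Spin1 and the summed Ssty1 type below it.

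Of the 56 Y-linked models, 42 had at least 1 count, and 24 passed the filter. In knockout 7 of these 24 were called higher and 15 lower, against 26.2% and 27.4% of all tested genes. The groups did not overlap in 20 of the 24, against 46.7% of all tested genes. With no filter 24 models were called lower, and with a stricter filter 8. By type, 5 of 7 tested Ssty1-type models were higher and 2 lower, while 2 of 17 tested Ssty2-type models were higher, 13 lower and 2 not called. All 15 called lower passed the filter through the wild-type libraries, 11 of them with 0 counts in knockout, and 1 of the 7 called higher, Gm21778, passed through the knockout libraries. Of those 16 models, Gm21812 and Gm21778 also had 2 libraries of the other group past the filter's minimum, so their difference was not fixed. The rest were past it in wild type alone and had to differ. The counts of all 16 are a description and not a test of the copies.

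Those 11, Ssty2 included, were at least 16.5-fold to 84.3-fold lower in knockout. The highest of them in wild type was Gm20806, a copy of the Ssty2 type with 0 counts in each knockout library, against 43, 81, 105 and 58 in wild type (3.16 ± 0.825 CPM), or at least 84.3-fold lower. Gm20854, at 2.22 ± 0.184 CPM in wild type, was at least 58.2-fold lower. A further 2 models kept a trace of counts. Gm20873, with 1 count in knockout and 184 in wild type, was at 0.617% of wild type (counting interval 0.0155% to 3.48%). Gm20795, with 2 counts, both in knockout replicate 3, and 82 in wild type, was at 2.77% (0.330% to 10.3%).

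The last 2 of the lower models kept more. Gm20918, of the Ssty2 type, had 4, 2, 3 and 2 counts in knockout, against 17, 25, 21 and 27 in wild type, or 0.142 ± 0.0525 CPM in knockout and 1.02 ± 0.220 CPM in wild type. Gm21812, also of the Ssty2 type, averaged 0.588 ± 0.160 CPM in knockout and 1.31 ± 0.227 CPM in wild type. In both the groups did not overlap.

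The copies that were higher in knockout were mostly of the Ssty1 type. Gm21778 had 47, 57, 56 and 55 counts in knockout, against 9, 16, 11 and 14 in wild type, or 2.76 ± 0.300 CPM in knockout and 0.566 ± 0.140 CPM in wild type. Gm21310 rose by 1.50 in log2 units (SE 0.226, adjusted p = 4.21e-05), to 2.41 ± 0.483 CPM in knockout, against 0.851 ± 0.116 in wild type. Gm21854 rose by 1.41 (SE 0.247, adjusted p = 0.000175), to 2.68 ± 0.297 CPM in knockout, against 0.996 ± 0.376 in wild type. In each of these 3 the groups did not overlap.

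Of the Ssty2 type, Gm28171 rose by 1.28 in log2 units (SE 0.192, adjusted p = 3.97e-05), with 3.43 ± 0.223 CPM in knockout and 1.41 ± 0.350 CPM in wild type. Gm20914 rose by 0.79 (SE 0.251, adjusted p = 0.0147), with 1.79 ± 0.198 CPM in knockout and 1.04 ± 0.330 CPM in wild type. The groups did not overlap in either. Gm20737 and Gm20777, of the Ssty1 type, were at the edge of the call, at 0.66 (adjusted p = 0.0494) and 0.53 (adjusted p = 0.0485), their groups overlapped, and their calls were lost in 8 and 11 of 14 alternative settings. Gm21721 (0.49, adjusted p = 0.152) and Gm20821 (0.15, adjusted p = 0.662), both of the Ssty2 type, were not called, and without wild-type replicate 1 Gm20821 was at -0.10.

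Copies near 0 in knockout lay in blocks along the Y. Ordered by the annotation and divided by whether a model had more than 3 counts over the knockout group, the 56 models formed 6 stretches. The first, 5 models from Gm20918 to Gm21778, held 842 counts in the knockout libraries, against 445 in wild type. The second, 8 models from Gm20873 to Gm20815, 1 of them without a count anywhere, held 2 counts in the knockout libraries, against 497 in wild type. The third, 6 models from Gm21292 to Gm21310, held 558 counts in the knockout libraries, against 531 in wild type. After the single model Gm20834, with 0 counts in knockout and 13 in wild type, came 3 models from Gm20737 to Gm20828, with 340 in knockout and 258 in wild type.

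The last stretch was the longest. It ran over 33 models from Gm20812 to Gm20854, 12 of the Ssty1 type and 21 of the Ssty2 type, and held both Ssty1 and Ssty2. It had 2 counts in knockout and 1477 in wild type, and 13 of its models had no count in any library. The order is that of GRCm38, which is not the build the submitters name, so it is used as an order only. The labels do not say how much of the Y the allele removes, and loss of the copies and loss of their transcripts cannot be told apart in these data.

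**Figure D3:**
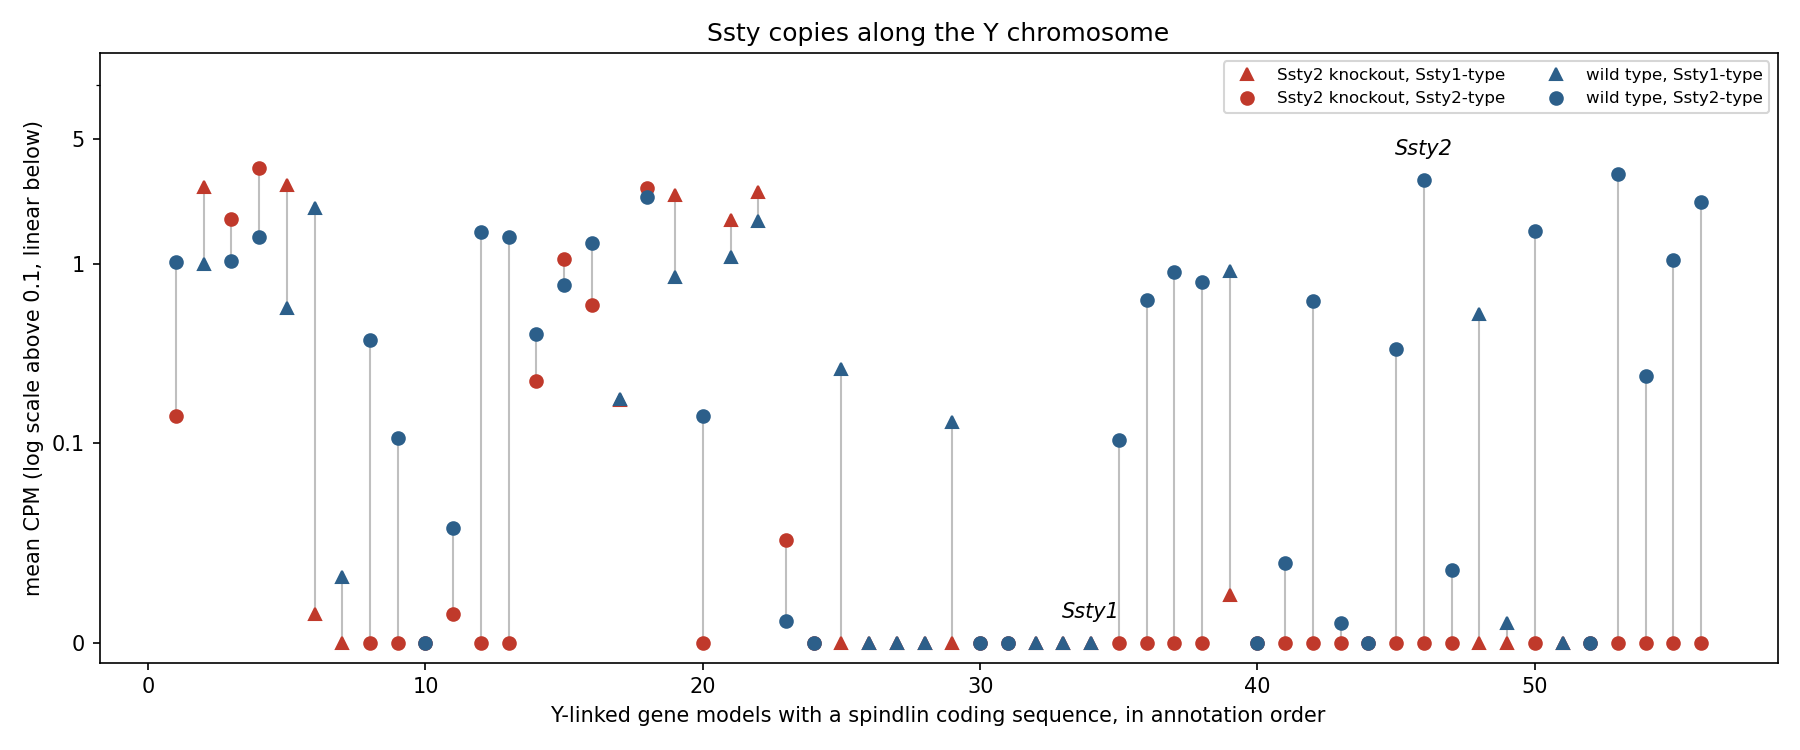
Mean level (TMM-scaled CPM, logarithmic above 0.1 and linear below) of the 56 Y-linked Ssty models in annotation order, with a line joining the Ssty2 knockout mean (red) and the wild-type mean (blue) of each model; triangles are Ssty1-type and circles Ssty2-type models, and where both means are 0 the symbols coincide. Knockout means lie at or near 0 over models 6 to 13 and over models 24 to 56, the stretch that holds Ssty1 and Ssty2.

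Because the knockout counts made this division, what follows describes the 2 kinds of copy without a test. The 42 models with 3 counts or fewer in knockout held 4 counts there and 1987 in wild type, or 61.7% of all Ssty counts in wild type. Among these 42, 14 had no count in wild type either, so they show no difference. The 42 included 28 of the Ssty2 type, with 68.7% of that type's wild-type counts, and 14 of the Ssty1 type, with 42.0%. In the 14 models with more than 3 counts in knockout, 1740 counts fell to knockout and 1234 to wild type. After scaling, their summed level in knockout over wild type was 2.27-fold for the 6 models of the Ssty1 type and 1.19-fold for the 8 of the Ssty2 type. In knockout the Ssty1-type sum thus had 3 counts from the first kind and 962 from the second, and the Ssty2-type sum had 1 and 778.

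The copies also differed in how much sequence they have to themselves, measured here in words of 31 bases. Of the 14 Y-linked models with no count in any library, 11 had no 31-base word that was absent from all other genes, and the median share of words found elsewhere was 100%. Of the 42 models with counts, 7 had no word of their own, with a median share of 94.9% (range 54.9% to 100%) and a median of 62 own words. Ssty2 was one of these 7, although it had 262 counts in wild type. Words within the annotated exons were counted, and a read can be longer than a word, so a model without an own word need not be without a read of its own.

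**Figure D4:**
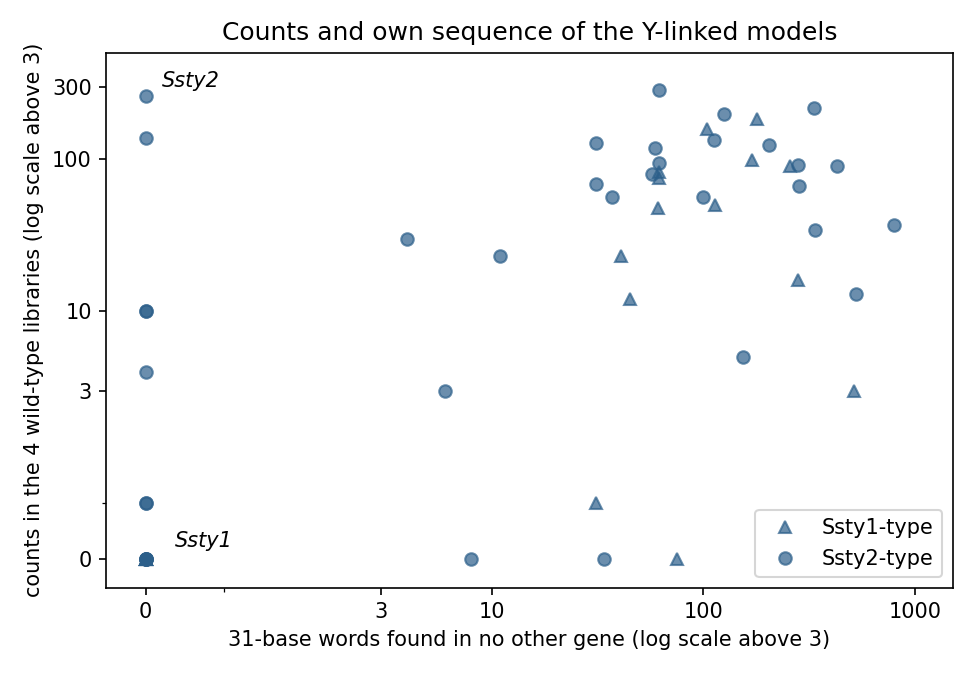
Counts summed over the 4 wild-type libraries against the number of 31-base words found in no other gene, for the 56 Y-linked models; both axes are logarithmic above 3 and linear below, triangles are Ssty1-type and circles Ssty2-type models. Of the 14 models without a count in any library 11 lie at 0 own words, Ssty1 among them, and Ssty2 lies at 0 own words with 262 counts.

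The 7 X-linked relatives of Spin2c were scarce in both groups. These models, among them Spin2d, Spin2e, Spin2f and Spin2g, summed to 1.46 ± 0.329 CPM in knockout and 1.50 ± 0.232 CPM in wild type, with 34, 30, 22 and 27 counts in knockout, against 23, 39, 42 and 31 in wild type. The groups overlapped throughout. Spin2e, the one that passed the filter, was at 0.718 ± 0.244 CPM in knockout and 0.664 ± 0.147 CPM in wild type, with a log2 change of 0.11 (SE 0.316, adjusted p = 0.792) that turned to -0.03 with library totals. It had no 31-base word of its own. The 5 pseudogenes named after Spin2 and Spin3 together held 58 counts in the knockout libraries, against 70 in wild type, and the tested one, Spin2-ps2, was not called (-0.27, SE 0.348, adjusted p = 0.538).

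Of 8 genes listed as Ssty or Spindlin partners, 7 were tested. In knockout 1 was called higher and 2 lower (1 and 4 with library totals), beside 26.2% higher and 27.4% lower of all tested genes. The median log2 change was -0.12, against -0.0089 over all tested genes. Sly is the amplified Y-linked gene whose product binds SSTY1. It had 1 count in knockout and 796 in wild type, or 0.0117 CPM in knockout and 8.84 ± 1.79 CPM in wild type. Sly passed the filter through wild type alone, so it had to differ, and its call is not a test. Slxl1, one of its X-linked relatives, rose by 1.35 in log2 units (SE 0.225, adjusted p = 0.000114), with 3.49 ± 1.05 CPM in knockout and 1.35 ± 0.243 CPM in wild type. Slx, near-identical to other X-linked copies, had 18 counts in knockout and 4 in wild type and did not pass the filter. Copies of Sly, Slx and Slxl1 share reads, so their counts carry the same uncertainty as those of Ssty.

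Of the 5 other genes on the list of partners, 1 was called. Maz, a zinc-finger transcription factor gene, was at 111 ± 4.43 CPM in knockout and 130 ± 1.08 CPM in wild type and fell, with a log2 change of -0.23 (SE 0.0513, adjusted p = 0.00117). Spindoc, whose product docks on SPIN1 and keeps it from histone tails, was at 38.5 ± 3.31 CPM in knockout and 37.4 ± 3.96 CPM in wild type (0.04, adjusted p = 0.704). Tbl1xr1, a subunit of corepressor complexes, was at 0.06 (adjusted p = 0.477); with library totals this turned to -0.08 and Spindoc to -0.10. Tcf7l2, a transcription factor of the Wnt pathway that SPIN1 is known to act with, was at -0.39 (adjusted p = 0.0547) and was called lower in 5 of 14 alternative settings. Serbp1, which encodes an RNA-binding protein, was at -0.12 (adjusted p = 0.0788) and was called lower in 3 of them.

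Of 14 H3K4 methyltransferases and their subunits, all tested, 10 were called lower and 2 higher in knockout, beside 27.4% lower and 26.2% higher of all tested genes, with a median log2 change of -0.26. Kmt2a, an H3K4 methyltransferase of the MLL family, fell by 0.57 on the same scale (SE 0.0913, adjusted p = 7.21e-05), with 18.7 ± 2.28 CPM in knockout and 27.7 ± 2.06 CPM in wild type. Men1, which encodes menin, a subunit of MLL complexes, fell by 0.51 (adjusted p = 5.85e-05), Hcfc1 by 0.40 (adjusted p = 7.84e-05) and the core subunit gene Wdr5 by 0.40 (adjusted p = 0.000169). Dpy30 (0.31) and Setd1b (0.30) were called higher but not with library totals, where 0 of the list were; both were chosen after their values were seen. Prdm9, the H3K4 methyltransferase that marks sites of meiotic recombination, also named after its value was seen, fell by 0.44 (adjusted p = 0.0121), a call lost in 1 of 14 alternative settings (adjusted p = 0.0522).

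Of 6 H3K4 demethylases 4 were called lower and none higher (6 lower with library totals), with a median of -0.31. Over all tested genes 27.4% were called lower and 26.2% higher. The Y-linked Kdm5d fell by 0.58 (SE 0.126, adjusted p = 0.00110), with 4.76 ± 0.365 CPM in knockout and 7.09 ± 0.638 CPM in wild type, and its X-linked counterpart Kdm5c by 0.24 (adjusted p = 0.0338), a call lost in 3 of 14 alternative settings. Kdm5a fell by 0.39 and Kdm1b by 0.38. Kdm5b, the most abundant of them by CPM at 312 ± 15.8 in knockout and 316 ± 12.2 in wild type, was at -0.02 (adjusted p = 0.749) and at 0.0045 without knockout replicate 4; with library totals it was called lower, at -0.16 (adjusted p = 0.0143).

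Arginine methyltransferases write a mark that SPIN1 reads beside H3K4me3. Of 9, 8 were tested, with 5 lower and 2 higher, beside 27.4% and 26.2% of all tested genes, and a median of -0.43. Prmt1, the main writer of asymmetric dimethylarginine, fell by 0.69 (SE 0.0712, adjusted p = 9.23e-07), with 25.7 ± 1.25 CPM in knockout and 41.5 ± 2.55 CPM in wild type. Prmt3 fell by 0.69, Prmt2, which writes such a mark on histone H3, by 0.62 and Prmt9 by 0.52. Prmt7 (0.15) and Carm1 (0.20), named after their values were seen, were called higher, calls that were lost in 7 and 8 of 14 alternative settings. The list had 0 called higher with library totals, and likewise when knockout replicate 1, knockout replicate 3, wild-type replicate 2 or wild-type replicate 3 was left out.

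Of 9 methyltransferases of H3K9 and H4K20, which place further marks that spindlins contact, 5 were lower and 1 higher. The shares over all tested genes were 27.4% and 26.2%, and the median of the list was -0.26. Ehmt1 fell by 0.75 (SE 0.0943, adjusted p = 7.22e-06), with 10.9 ± 0.504 CPM in knockout and 18.3 ± 1.80 CPM in wild type. Its partner in the same complex, Ehmt2, rose by 0.29 (SE 0.0589, adjusted p = 0.000601), with 410 ± 20.6 CPM in knockout and 335 ± 24.7 CPM in wild type. Suv39h1, which trimethylates H3K9, fell by 0.62 and Kmt5a, which monomethylates H4K20, by 0.39.

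Of 15 other readers of H3K4me3, 4 were called higher and 3 lower, shares near the 26.2% and 27.4% over all tested genes, with a median of 0.09, and with library totals 1 was higher and 5 lower. Without wild-type replicate 4, 2 were called higher. Zcwpw1, a reader active in meiosis, fell by 0.46 (SE 0.0887, adjusted p = 0.000375) and Phf13 by 0.27 (adjusted p = 0.000398). Sgf29 rose by 0.31 (adjusted p = 0.000775) and Ing3 by 0.32 (adjusted p = 0.00163), a call that was lost with library totals.

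**Figure D5:**
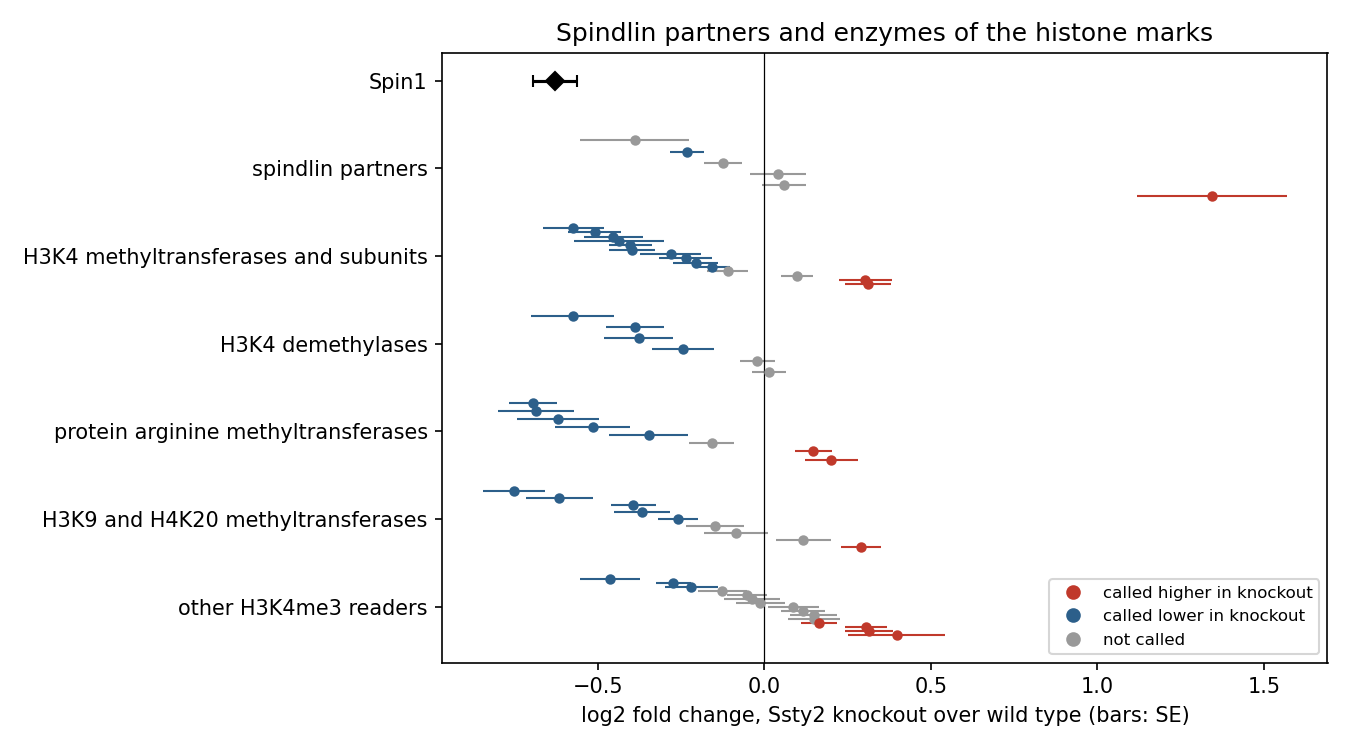
Log2 fold change of Ssty2 knockout over wild type for Spin1, for 6 of the 8 spindlin partners and for the tested genes of 5 lists of histone-mark enzymes and readers; bars are SE from the edgeR fit, red points were called higher in knockout, blue lower and grey not called. Sly, with 1 count in knockout, and Slx, not tested, are not drawn. Spin1 at -0.63 lies below all 14 genes of the H3K4 methyltransferase list, of which 10 were called lower.

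Markers of the cells of the testis moved with these changes. All 14 round spermatid markers were higher in knockout (median 0.47; summed level 4270 to 4394 CPM in knockout and 2860 to 3161 CPM in wild type), as were 11 of 12 elongating spermatid markers (median 0.57; 22901 to 26222 CPM in knockout and 14806 to 18080 CPM in wild type). Of 14 spermatocyte markers 4 were higher and 5 lower, near the 26.2% and 27.4% over all tested genes (2 higher with library totals; median -0.12; 3966 to 4124 CPM in knockout and 3792 to 3899 CPM in wild type). Of 12 spermatogonial markers 9 were lower and 1 higher (median -0.69; 173 to 182 CPM in knockout and 257 to 287 CPM in wild type).

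All 12 Sertoli cell markers were lower (median -0.62; 1192 to 1345 CPM in knockout and 1776 to 1994 CPM in wild type), as were all 10 Leydig cell markers (median -1.04; 1156 to 1281 CPM in knockout and 2311 to 2562 CPM in wild type) and 7 of 10 peritubular and macrophage markers (median -0.56; 152 to 180 CPM in knockout and 236 to 261 CPM in wild type). The share called lower over all tested genes was 27.4%. For scale, the Sertoli gene Inha fell by 0.97 on the log2 scale and the Leydig gene Cyp17a1 by 1.16. The acrosomal gene Izumo1 rose by 0.85 and the flagellar gene Akap4 by 0.70. No marker of these lists was at 0 in all libraries. The part of these shifts in the levels of Spin1, the Ssty copies that rose and the chromatin genes was not tested.

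The genes whose level followed each member most closely over the 8 libraries were found among 16666 tested genes of at least 1 log2 CPM, and Pearson's r is given as a description, since the libraries form 2 groups and share their scaling. For Spin1 they were Adh5 (0.997), Ktn1 (0.996) and Rnf130 (0.996), and for Ssty2 Lamb1 (0.998), Acly (0.998) and Adh5 (0.997). For these 2 members 31.5% and 30.6% of the candidates had an r over 0.9 in size, so the nearest genes stand out little from the rest. For Spin2c they were Arhgap39 (0.975), Dsp (0.974) and Dact2 (0.973), with 0.498% of candidates over 0.9, and for Spin4 Hspa13 (0.983), Rybp (0.977) and Ttc26 (0.974), with 0.444%. Both members had few counts, and for Spin4 wild-type replicate 2 stood above the other libraries. Being the highest of 16666 values, these r do not show a link to either member.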

How the data were processed

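Adult mouse testis was measured by bulk RNA sequencing in 4 Ssty2 knockout and 4 wild-type libraries, made from DNase-treated total RNA with a TruSeq kit, per the labels. The authors deposited whole-number counts per Ensembl gene, without normalization. Tools named in the submitters' processing notes are STAR, featureCounts, DESeq2, FastQC and Trimmomatic, with build mm39. Their versions and settings, the strand rule and the treatment of reads with several matches were not given in the sources used here, so counts of near-identical copies, and of overlapping or antisense genes, are uncertain.

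The counts were tested with edgeR 4.0.16 in R 4.3.3 (filterByExpr, minimum count 10, minimum total 15; TMM; quasi-likelihood test; Benjamini-Hochberg adjustment over 21952 genes). The procedure was checked on simulated data with far fewer changed genes, split evenly up and down and none with few counts. That check does not cover a shift as broad as the one here, nor genes with few counts. A symbol was found for 52073 genes, and 14839 had no count. No pair of libraries agreed within sampling noise (chi-square per degree of freedom 4.52 to 9.40). Counting intervals (95%, exact) and the limit of 3 counts cover counting error only. Alternatives were other scalings, filters, DESeq2 1.42.0, a replicate term and leaving out each library.

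Names, chromosomes, order, sequences and translations are from GENCODE vM21 (GRCm38), whose build differs from that of the counts, so no coordinates are given. Relatives were sought with blastp 2.17.0 and aligned with Biopython 1.88, coding sequences with MAFFT 7.526. Besides members and relatives, the partners, up to 4 called genes of each chromatin list and 2 of each cell type list by smallest p, and the 3 genes most alike to each member were named. The members and lists were chosen with earlier results of these data known. The rule asked for RefSeq proteins, in whose place translated GENCODE coding sequences were used.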

Additional observations from a re-analysis of the deposited data

Results flagged for a closer look

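In 5 of 138 groups of 4 libraries examined, 1 library stood apart from the other 3 by more than Dixon's 95% limit, and chance alone gives about 1 in 20. Men1 was at 31.2 CPM in wild-type replicate 4, against 27.2 to 27.9 CPM in the other wild-type libraries. Ehmt2 was at 441 CPM in knockout replicate 1, against 397 to 402 CPM in the other knockout libraries. Gsg1, a round spermatid marker, was at 786 CPM in wild-type replicate 2, with the others at 861 to 876 CPM. Dmrt1, a spermatogonial marker, was at 35.2 CPM in wild-type replicate 4, with the others at 30.2 to 31.1 CPM. Inha, a Sertoli cell marker, was at 54.8 CPM in knockout replicate 2, with the others at 63.9 to 65.5 CPM. None of the 5 family members was among them.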

How the results depend on the processing

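Spin1 and Ssty2 stayed called lower in all 14 alternative runs. Spin2c and Spin4 stayed uncalled in each of the 13 alternative runs that tested them. The counts over all genes ranged from 3848 (library totals) to 5915 higher and from 5367 to 8255 lower, and DESeq2 called 5432 higher and 5689 lower of 28085. Of the Y-linked models, DESeq2 called 5 higher and 20 lower, the other alternatives 5 to 7 higher, no filter gave 24 lower and a stricter filter 8. The Ssty2-type sum was 34.0% of wild type with library totals and 35.7% to 39.0% with 1 library left out. With library totals the counts moved to 4 partners lower, 0 H3K4 methyltransferases, 0 arginine methyltransferases and 2 spermatocyte markers higher, and 1 other H3K4me3 reader higher and 5 lower. Of the partners 2 were higher with no filter, and of the arginine methyltransferases 1 with no filter or a stricter one. With 1 library left out, 0 to 2 arginine methyltransferases and 2 to 4 other readers were higher. The Y-model counts and type sums under these settings were chosen after seeing the data.

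The sign turned only for values that were not called. With library totals the log2 change of Spin2e was -0.033, that of Tbl1xr1 -0.083 and that of Spindoc -0.0998. With 1 library left out, Spin2e ran from -0.14 to 0.22, Spindoc from -0.0199 to 0.11, Gm20821 from -0.10 to 0.37 and Kdm5b from -0.0511 to 0.0045. The difference in the Spin1 to Spin4 ratio ran from -0.44 to 0.0058 and that of Spin1 to Spin2c from -0.18 to 0.23. The cause was not tested.

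The labels do not say whether the replicate numbers pair the libraries. Deviations of same-numbered libraries correlated at 0.0798, 0.0225, 0.0605 and 0.00201, those of differently numbered ones at -0.0657 to 0.0406. All of these are small, and they cannot decide whether same-numbered libraries share an effect. With a replicate block 5915 genes were called higher and 6203 lower, Spin1 was at -0.63 (adjusted p = 1.59e-06), Spin2c at -0.66 (adjusted p = 0.103) and Spin4 at -0.49 (adjusted p = 0.271), and Tcf7l2 and Serbp1 passed the threshold (adjusted p = 0.0338 and 0.0318), which made 4 partners lower. Spin2c and Spin4 rest on 40 and 42 counts in knockout and 70 and 69 in wild type.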
